A study of Mus musculus with 12 samples.

Results

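The conjugating enzymes of phase 2 detoxification were followed here as 62 genes of the 23420 in the count files, chosen by gene symbol: every UDP-glucuronosyltransferase of families 1 to 3 (Ugt, 20 genes), sulfotransferase (Sult, 18 genes), cytosolic, mitochondrial or peroxisomal glutathione S-transferase (Gst, 21 genes) and microsomal glutathione S-transferase (Mgst, 3 genes). RNA sequencing of whole C57BL/6 mouse liver was read in 12 libraries, 2 in each of 6 groups. Every mouse carried floxed alleles of Gdown1, the gene Polr2m, which encodes a protein bound to RNA polymerase II. KO livers came from Gdown1 flox/flox;Alb-Cre mice at 7 weeks, and their FF controls were Gdown1 flox/flox mice of the same age. DKO livers were from Gdown1 flox/flox;Alb-Cre;p53-/- mice at 8 weeks, and p53KO livers from Gdown1 flox/flox;p53-/- mice of that age. DKO TAM livers were taken 24 hours after a tamoxifen injection from p53-null Gdown1 flox/flox mice with Alb-CreERT2, a Cre that tamoxifen switches on, and p53KO TAM livers at the same time after the injection from p53KO mice. The age of the tamoxifen groups, the sex of the mice and whether the p53KO TAM mice carried a Cre transgene are not given in the sources used here. Both forms of Cre are driven by the albumin promoter, which is active in hepatocytes.

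Conjugating enzymes attach a water-soluble group to drugs, bilirubin, bile acids, hormones and reactive electrophiles. UGTs transfer glucuronic acid or another sugar from a UDP-sugar in the endoplasmic reticulum, SULTs transfer sulfate from PAPS in the cytosol, and GSTs add glutathione to electrophiles or reduce peroxides. Hepatocytes hold most of these enzymes in the liver. Many are set by xenobiotic receptors, by NRF2, a transcription factor activated by oxidants, or by the sex-specific pattern of growth hormone.

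The libraries held 4939408 to 8776369 counts, of which the 62 genes took 0.483% to 1.07%, and 3 counts, the limit set for 0 counts, are 0.342 to 0.607 CPM of the plain library totals. Levels below are CPM, counts scaled to library size with TMM factors. A value written as x ± y is a log2 fold change with a standard error derived from its test statistic. Polr2m was lower in every deleted library than in its controls, at -0.67 ± 0.13, adjusted p = 0.0024 in KO, -0.70 ± 0.13, adjusted p = 0.00024 in DKO and -0.36 ± 0.13, adjusted p = 0.063 in DKO TAM livers, the last of which did not pass the test. Trp53 had 3.07 and 2.79 CPM in p53KO livers against 13.1 and 7.94 CPM in FF livers (-1.81 ± 0.31, adjusted p = 0.0087). DKO livers, also labelled p53-null, held 8.39 and 8.12 CPM, within the FF range and above p53KO livers (1.48 ± 0.29, adjusted p = 0.0005). The mean was 9.48 CPM in DKO TAM livers against 3.87 CPM in p53KO TAM livers (1.29 ± 0.28, adjusted p = 0.0039). KO livers also lay above FF livers (0.93 ± 0.235, adjusted p = 0.013), and the cause of these Trp53 differences was not tested. Xist had 65 counts in KO 1 and 62 in DKO TAM 1 and at most 21 in the other 10 libraries, and the part of sex in the results was not tested.

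The RNA levels of cell type markers differed between the groups. All 6 hepatocyte markers (Alb, Apoa1, Ttr, Serpina1c, Tat and Cps1) fell in KO and DKO livers and 5 of 6 in DKO TAM livers. Their summed level was 40200 to 46400 CPM in KO livers against 79600 to 86600 CPM in FF livers. It was 22700 to 26300 CPM in DKO livers against 95700 to 96400 CPM in p53KO livers, and 26300 to 27200 CPM in DKO TAM livers against 89000 to 90200 CPM in p53KO TAM livers. In DKO livers 5 of 8 cholangiocyte markers rose (269 to 300 CPM summed, against 66.6 to 68.9 CPM in p53KO livers). So did 8 of 8 stellate and fibroblast markers (1090 to 1180 CPM in DKO livers against 259 CPM in both p53KO livers), 7 of the 7 macrophage markers in the files (1050 to 1130 CPM in DKO livers against 465 to 496 CPM in p53KO livers) and 5 of 5 dividing-cell markers (947 to 951 CPM in DKO livers against 31.3 to 39.2 CPM in p53KO livers). Of 8 endothelial markers, 2 rose and 3 fell (494 to 589 CPM in DKO livers against 664 to 690 CPM in p53KO livers). In KO livers 3 dividing-cell markers and 1 each of the stellate, macrophage and endothelial lists rose, and in DKO TAM livers 5 dividing-cell, 1 cholangiocyte and 1 macrophage marker rose while 4 endothelial and 1 stellate marker fell. None of the 5 T and B cell markers in the files passed in any comparison, and no marker in the files was at 0 in all libraries. Of 5 periportal hepatocyte markers 2, 4 and 3 fell in KO, DKO and DKO TAM livers, and of 5 pericentral ones 3, 5 and 1. Fewer hepatocytes and less RNA of a gene per hepatocyte cannot be told apart in whole liver, and the part of cell makeup in the results was not tested.

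Of the 62 genes, 49 had enough counts to test: 18 UGTs, 11 SULTs, 18 GSTs and 2 MGSTs. A gene is called where edgeR's quasi-likelihood test gave an adjusted p (Benjamini-Hochberg over all 13693 genes tested) under 0.05, with n = 2 libraries a group. The labels do not state that replicates were separate mice, so these p-values measure only the spread between these libraries. In KO livers 19 of the 49 were called against FF livers, 3 higher and 16 lower (38.8%, where 14.8% of all tested genes were called, 6.92% higher and 7.88% lower). In DKO livers 42 were called against p53KO livers, 10 higher and 32 lower (85.7%, where 51.4% of all tested genes were called, 25.7% higher and 25.7% lower). In DKO TAM livers 24 were called against p53KO TAM livers, 4 higher and 20 lower (49%, where 18.7% of all tested genes were called, 8.61% higher and 10.1% lower). The median log2 fold change of the tested members was -0.34 in KO, -1.02 in DKO and -0.56 in DKO TAM livers, against 0.02, 0.01 and 0.01 over all tested genes. Scaled by library totals alone, which moves the median of all genes to 0.28, 0.77 and 0.36, the member calls were 7 higher and 13 lower in KO, 14 and 20 in DKO, and 6 and 13 in DKO TAM livers. Under that scaling the calls of Ugt1a6b, Sult1c2 and Gsta4 were lost in KO livers, and those of Ugt1a10, Ugt1a6b, Ugt2a3, Ugt2b5, Ugt2b38, Ugt3a2 and Gstz1 in DKO TAM livers. In DKO livers it ended the calls of Ugt1a1, Ugt1a2, Ugt2b34, Ugt2b35, Sult1a1, Sult1c2, Gstk1, Gstm1, Gstm2, Gstm4, Gstm7 and Gstt2. In the tamoxifen comparison 1 library moved the count by over 1.5 times: 15 members were called without p53KO TAM 1 and 13 without p53KO TAM 2.

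**Figure D1:**
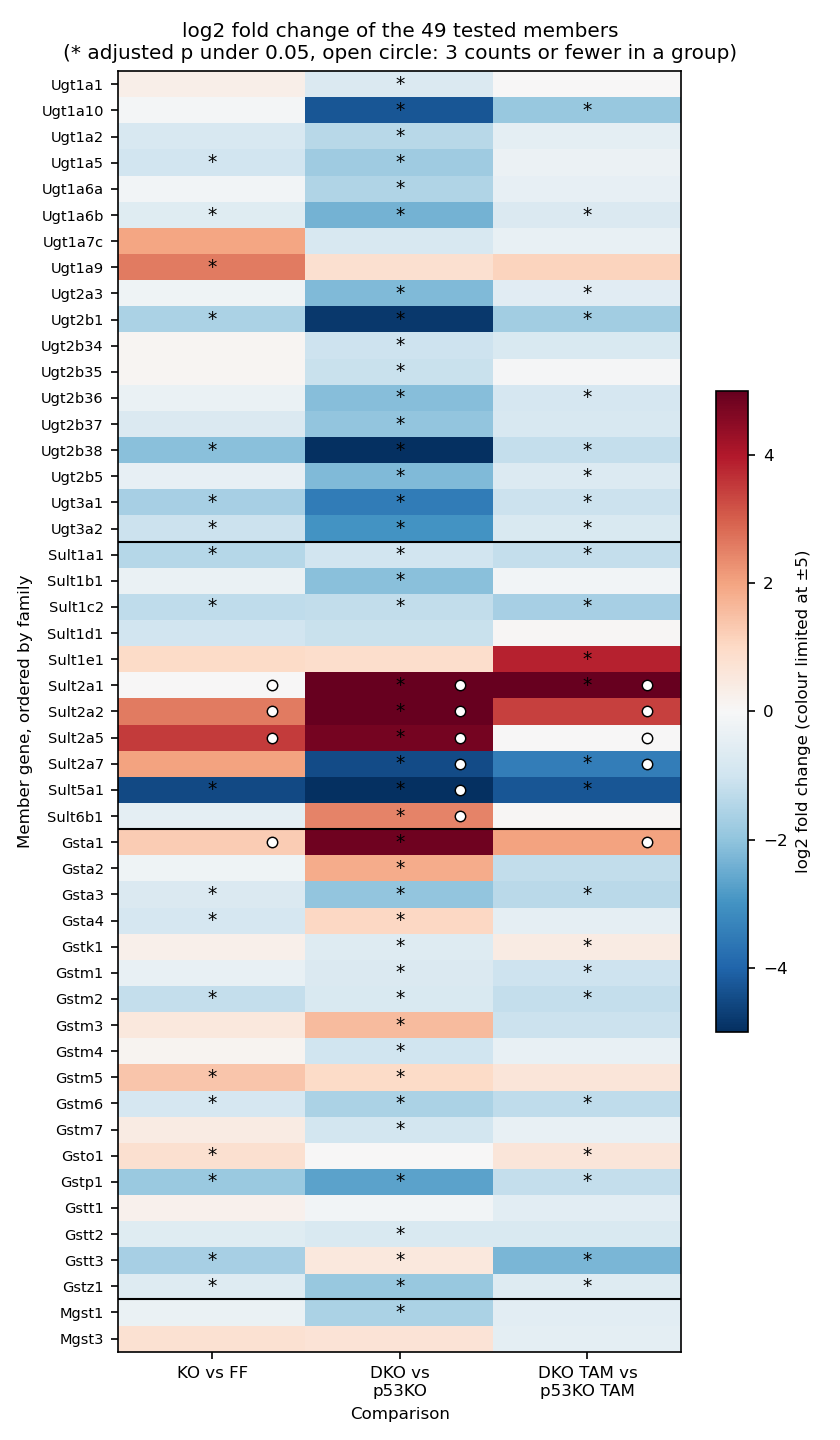
Fitted log2 fold change (colour, limited at ±5) of the 49 tested members, by family, in KO against FF, DKO against p53KO and DKO TAM against p53KO TAM livers. Asterisks mark calls, and open circles mark members with 3 counts or fewer in a group, whose fitted value depends on the added prior. The DKO column is blue for 32 called members and red for 10, and 16 of the 18 UGTs are called lower in it.

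With the single exception of Ugt1a9 in KO livers, called UGTs were lower (under library totals alone Ugt1a1 and Ugt1a7c were called higher in KO livers and Ugt1a9 in DKO and DKO TAM livers), while GSTs and SULTs were called in both directions. Of 18 UGTs, 6 fell and 1 rose in KO livers (median log2 fold change -0.38), 16 fell and none rose in DKO livers (-2.05), and 9 fell and none rose in DKO TAM livers (-0.71). Of 18 GSTs, 7 fell and 2 rose in KO livers (-0.29), 10 fell and 6 rose in DKO livers (-0.68), and 7 fell and 2 rose in DKO TAM livers (-0.71). Of 11 SULTs, 3 fell and none rose in KO livers (-0.34), 5 fell and 4 rose in DKO livers (-0.96), and 4 fell and 2 rose in DKO TAM livers (0.00). That median of 0.00 is the value of Sult2a5, which had 0 counts in both DKO TAM and p53KO TAM livers, and does not measure a change. In all 3 comparisons 13 members fell: Ugt1a6b, Ugt2b1, Ugt2b38, Ugt3a1, Ugt3a2, Sult1a1, Sult1c2, Sult5a1, Gsta3, Gstm2, Gstm6, Gstp1 and Gstz1. Another 11 fell and 6 rose with a call in DKO livers alone, and 4 (Ugt1a7c, Sult1d1, Gstt1 and Mgst3) were called in none of the 3. The shares of all tested genes with these patterns are not given here, so the pattern counts only list the members. In DKO livers 51.4% of all tested genes were called.

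Summed over all genes of a family, UGT transcripts came to 3551 and 4495 CPM in KO livers against 4506 and 5443 CPM in FF livers. The sums were 1558 and 1259 CPM in DKO livers against 4513 and 5355 CPM in p53KO livers, and 2095 and 1345 CPM in DKO TAM livers against 2560 and 2698 CPM in p53KO TAM livers. The ratio of the means was 0.809, 0.286 and 0.654 in the 3 comparisons. For the GSTs it was 0.665, 0.435 and 0.55, for the SULTs 0.473, 0.507 and 0.683, and for the MGSTs 0.802, 0.339 and 0.691. No pair of UGT sums overlapped, though KO 2, at 4495 CPM, lay just under FF 1, at 4506 CPM.

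**Figure D2:**
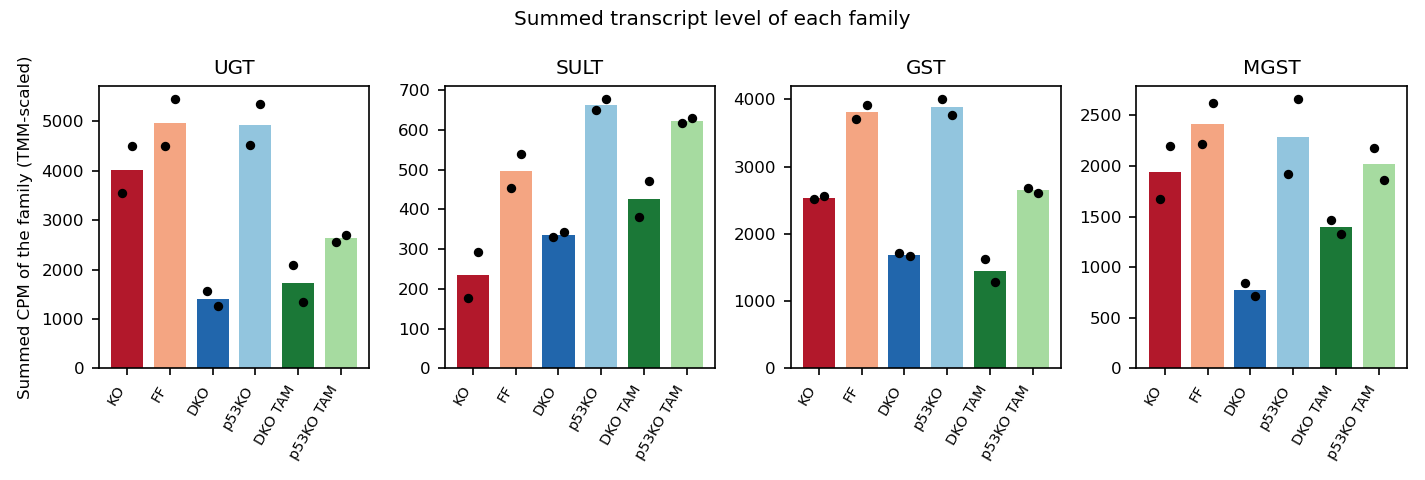
Summed CPM of each family (bars, group means; points, the 2 libraries of a group) in the 6 groups. The UGT bar is lowest in DKO livers, at 1409 CPM, and the SULT bar is lowest in KO livers, at 235 CPM.

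Per length of exon that no other gene shares, the highest member over all 12 libraries was Mgst1, at 1910 CPM per kb, followed by Gsta3 (598), Gstm1 (412), Gstz1 (378), Ugt2b34 (289.7) and Ugt2b5 (270.2 CPM per kb). Ugt1a1 had 166 CPM per kb, and Sult1a1, the highest sulfotransferase, 144. These are levels, and they order the genes in the whole data set rather than in a group.

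The Ugt1a genes on chromosome 1 (GRCm38) are alternative first exons spliced to shared last exons. Of the 8, 7 end at position 88220002 and Ugt1a6b at 88218998, and only 890 to 986 of their 2293 to 3302 exon bases are unshared. Counting settings are recorded for 4 of the 12 libraries and leave out reads that fall on more than 1 gene. The other libraries were taken to be counted alike, which is an assumption. Under it the values below stem from the first exons, and a level per kb uses those bases alone. Ugt1a9, which glucuronidates phenols, was the UGT called higher in KO livers. It had 192 and 431 CPM in KO livers against 36.1 and 64.9 CPM in FF livers, and both KO livers lay above both FF livers (2.61 ± 0.47, adjusted p = 0.013). KO 2 held more than KO 1, and the call was lost without FF 1 (0.067) and when the KO and FF libraries were fitted alone (0.16). In the other pairs it had 102 and 105 CPM in DKO livers against 55.6 and 63.9 CPM in p53KO livers and 151 and 88.8 CPM in DKO TAM livers against 60.5 and 50.7 CPM in p53KO TAM livers. The deleted livers were again above their controls without overlap, but neither difference passed the test (0.79 ± 0.46, adjusted p = 0.19, and 1.11 ± 0.46, adjusted p = 0.15). Both depended on the fit. Ugt1a9 was called higher in DKO livers under library totals alone (adjusted p = 0.015), with the replicate block (0.00054) and with the compared libraries alone (0.0003). In DKO TAM livers it was called under the same 3 settings (0.038, 0.00026 and 0.036) and by limma-voom (0.046).

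Ugt1a1, the enzyme that conjugates bilirubin, went the other way in DKO livers. It had 235 and 195 CPM in KO livers against 171 and 175 CPM in FF livers. DKO livers held 104 and 95.4 CPM against 164 and 163 CPM in p53KO livers. After tamoxifen, 156 and 107 CPM in DKO TAM livers stood against 130.5 and 129 CPM in p53KO TAM livers. It fell in DKO livers (-0.72 ± 0.15, adjusted p = 0.00097; 0.05 under library totals alone), while KO livers lay above FF livers without a call (0.31 ± 0.15, adjusted p = 0.19; called higher under library totals alone) and the tamoxifen groups overlapped (0.01 ± 0.15, adjusted p = 0.96). Per kb of first exon, Ugt1a9 stood at 346 CPM and Ugt1a1 at 235 CPM in KO livers, against 56.1 and 189.7 CPM in FF livers. In DKO livers the levels per kb were 115 CPM for Ugt1a9 and 109 CPM for Ugt1a1, against 66.4 and 179 CPM in p53KO livers. The mean of Ugt1a9 was thus above that of Ugt1a1 in KO livers and close to it in DKO livers, and well below it in FF and p53KO livers. The order in KO livers came from KO 2 alone, with 479 CPM per kb for Ugt1a9 against 213.5 for Ugt1a1. In KO 1 Ugt1a9 lay below Ugt1a1, at 213.4 against 256.9 CPM per kb.

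The other first exons fell or did not pass. Ugt1a6b, a close copy of the phenol enzyme Ugt1a6a, had 19.6 and 27.5 CPM in KO livers against 37.02 and 35.2 CPM in FF livers. DKO livers held 8.05 and 8.81 CPM against 38.4 and 47.8 CPM in p53KO livers. After tamoxifen, 17.2 and 20.8 CPM in DKO TAM livers stood against 30.9 and 31.9 CPM in p53KO TAM livers. The groups overlapped in none of the pairs, and it fell in each (-0.62 ± 0.18, adjusted p = 0.028, -2.35 ± 0.18, adjusted p = 3.4e-08, and -0.73 ± 0.18, adjusted p = 0.0087). Ugt1a10, an enzyme found mainly outside the liver in humans, had 0.0847 and 0.257 CPM in DKO livers against 3.07 and 4.29 CPM in p53KO livers, both DKO livers far under both p53KO livers (-4.28 ± 0.61, adjusted p = 2.2e-05). The DKO values rest on 1 and 3 counts, so the size of the fall is uncertain. Ugt1a5 fell in KO and DKO livers (-0.94 ± 0.19, adjusted p = 0.0028, and -1.80 ± 0.19, adjusted p = 7.4e-07), Ugt1a6a and Ugt1a2 passed in DKO livers and not elsewhere (-1.49 ± 0.20, adjusted p = 1.3e-05, and -1.37 ± 0.37, adjusted p = 0.0058), and Ugt1a7c in none. Ugt1a7c had 3.89 and 10.8 CPM in KO livers against 0.226 and 3.11 CPM in FF livers, without overlap (1.98 ± 0.71, adjusted p = 0.094), and was called higher under library totals alone, with the replicate block and by DESeq2. Single libraries carried part of these calls: in KO livers Ugt1a6b without KO 1 (0.26), FF 1 (0.12) or FF 2 (0.092) lost its call, in DKO livers Ugt1a2 without p53KO 2 (0.068), and in DKO TAM livers Ugt1a10 without DKO TAM 1 (0.16), DKO TAM 2 (0.12) or p53KO TAM 2 (0.3) and Ugt1a6b without DKO TAM 1 (0.077), p53KO TAM 1 (0.05) or p53KO TAM 2 (0.05), each with its adjusted p in parentheses.

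**Figure D3:**
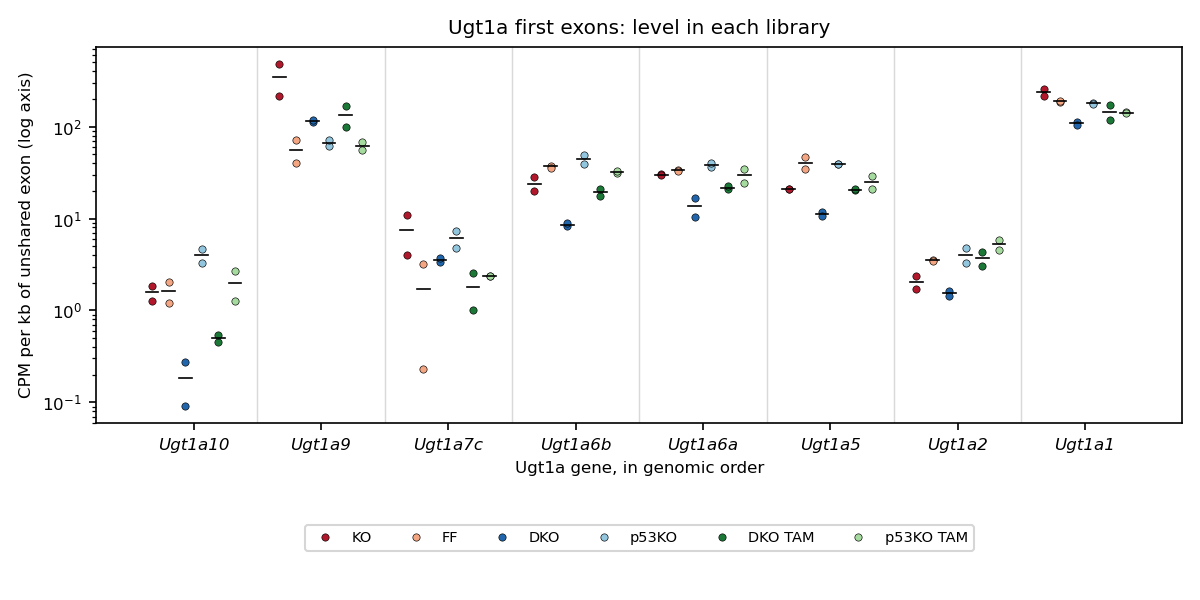
Level of the 8 Ugt1a first exons in CPM per kb of unshared exon (log axis), in genomic order, with 1 point per library and a line at each group mean. Ugt1a9 reaches 346 CPM per kb in KO livers against 56.1 CPM per kb in FF livers, and Ugt1a10 is lowest in DKO livers.

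Ugt1a9 and Ugt1a10 lie next to each other and have like promoters, and in DKO livers Ugt1a10 fell while Ugt1a9 lay above its controls without a call, so the sequences are shown. They are from RefSeq on GRCm38.p6, 250 bases before to 10 after the start of each gene, at chr1:88055161-88055420 (+) and chr1:88070529-88070788 (+), and the starts equal those in the count files. Capitals mark each match on either strand to GTTAAT, a half-site of the liver factor HNF1. That motif is in 7.1% of 32851 promoter windows of 300 bases (250 before to 50 after the start) and in 13 of the 65 windows (20%) that RefSeq's table gives for 54 of the 62 members.
Ugt1a9: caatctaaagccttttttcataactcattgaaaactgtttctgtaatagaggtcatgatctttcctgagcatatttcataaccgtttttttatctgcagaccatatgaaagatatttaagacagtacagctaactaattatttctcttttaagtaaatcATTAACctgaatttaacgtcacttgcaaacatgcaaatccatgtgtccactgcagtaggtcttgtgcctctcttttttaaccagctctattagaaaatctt
Ugt1a10: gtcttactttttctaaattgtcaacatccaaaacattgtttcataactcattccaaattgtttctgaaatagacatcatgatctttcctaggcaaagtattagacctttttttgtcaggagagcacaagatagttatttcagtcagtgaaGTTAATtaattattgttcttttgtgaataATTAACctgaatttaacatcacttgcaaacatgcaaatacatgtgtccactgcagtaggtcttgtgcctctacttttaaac
Aligned over 300 bases, the Ugt1a9 and Ugt1a10 windows share 71.2% of the aligned columns (232 of 326). Ugt1a9 holds 1 match and Ugt1a10 holds 2, and the match of Ugt1a9 begins 91 bases before the start. A match is a description of the letters and not a site of binding.

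Outside the Ugt1a cluster, all 7 Ugt2b genes, Ugt2a3 and both Ugt3a genes fell in DKO livers. Ugt2b1, which conjugates steroids and drugs and is higher in males in mouse liver, had 301 and 305 CPM in KO livers against 797 and 1031 CPM in FF livers. DKO livers held 34.4 and 27.02 CPM against 732 and 996 CPM in p53KO livers. After tamoxifen, 77.6 and 48.4 CPM in DKO TAM livers stood against 186 and 232 CPM in p53KO TAM livers. The deleted livers lay below their controls in each pair with no overlap, and the gene fell by 1.59, 4.81 and 1.72 on the log2 scale (adjusted p = 0.00056, 1.7e-08 and 0.00032). Ugt2b38, of the same subfamily, had 13.03 and 13.1 CPM in KO livers against 52.4 and 59.7 CPM in FF livers. DKO livers held 0.932 and 0.941 CPM against 41.1 and 50.1 CPM in p53KO livers. After tamoxifen, 2.19 and 1.88 CPM in DKO TAM livers stood against 3.06 and 6.67 CPM in p53KO TAM livers. No pair overlapped, with log2 fold changes of -2.10 ± 0.21, adjusted p = 5.6e-06, -5.58 ± 0.28, adjusted p = 3e-10, and -1.18 ± 0.34, adjusted p = 0.024. The p53KO TAM controls themselves held little Ugt2b38. Ugt2b38 shares 37.4% of its 50-base words with other genes, most of them with Ugt2b5. Ugt2b5 in turn shares 41.7% of its words, 34.8% with Ugt2b38. Reads that match both genes equally were not counted under the settings taken for all libraries.

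Ugt2b5, which glucuronidates testosterone, and Ugt2b34 had the highest UGT levels per length. Ugt2b5 had 556 and 766 CPM in KO livers against 843 and 916 CPM in FF livers. DKO livers held 197 and 163 CPM against 738 and 931 CPM in p53KO livers. After tamoxifen, 241 and 153 CPM in DKO TAM livers stood against 344 and 291 CPM in p53KO TAM livers. It fell in DKO and DKO TAM livers (-2.21 ± 0.22, adjusted p = 1.6e-06, and -0.69 ± 0.21, adjusted p = 0.037), and KO livers lay below FF livers without a call (-0.41 ± 0.21, adjusted p = 0.22). Ugt2b34 had 961 and 1278 CPM in KO livers against 883 and 1222 CPM in FF livers. DKO livers held 630 and 477 CPM against 1122 and 1124 CPM in p53KO livers. After tamoxifen, 685 and 392 CPM in DKO TAM livers stood against 844 and 977 CPM in p53KO TAM livers. The KO and FF livers overlapped, and it fell in DKO livers without passing elsewhere (-1.02 ± 0.26, adjusted p = 0.0058). Ugt2b36 fell in DKO and DKO TAM livers (-2.12 and -0.85), as did Ugt2a3 (-2.21 and -0.56), whose human counterpart conjugates bile acids. Ugt2b35 and Ugt2b37 fell in DKO livers and did not pass elsewhere (-1.10 and -1.99).

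The Ugt3a enzymes take sugars other than glucuronic acid, as known for the human proteins. Ugt3a1 had 11.5 and 15.4 CPM in KO livers against 36.6 and 47.8 CPM in FF livers. DKO livers held 4.83 and 4.1 CPM against 49.3 and 50.6 CPM in p53KO livers. After tamoxifen, 11.1 and 7.003 CPM in DKO TAM livers stood against 20.8 and 17.3 CPM in p53KO TAM livers. Ugt3a2 had 213 and 234 CPM in KO livers against 412 and 523 CPM in FF livers. DKO livers held 63.5 and 56.4 CPM against 387 and 572 CPM in p53KO livers. After tamoxifen, 203 and 137 CPM in DKO TAM livers stood against 296 and 282 CPM in p53KO TAM livers. For both genes every deleted library lay below both of its controls. The log2 fold changes of Ugt3a1 were -1.66 ± 0.22, adjusted p = 7.2e-05, -3.48 ± 0.23, adjusted p = 5e-09, and -1.06 ± 0.22, adjusted p = 0.0035, and those of Ugt3a2 -1.06 ± 0.20, adjusted p = 0.0031, -3.00 ± 0.22, adjusted p = 8.5e-08, and -0.76 ± 0.20, adjusted p = 0.018. Of the UGT2 and UGT3 calls in KO livers none was lost without a single library, and in DKO livers that of Ugt2b34 without DKO 3 (0.054) was. In DKO TAM livers the calls of Ugt2b38 without DKO TAM 1 (0.064), DKO TAM 2 (0.11) or p53KO TAM 2 (0.38), Ugt2b5 without DKO TAM 2 (0.26), p53KO TAM 1 (0.21) or p53KO TAM 2 (0.067), Ugt2a3 without DKO TAM 2 (0.24), p53KO TAM 1 (0.085) or p53KO TAM 2 (0.18), Ugt3a1 without p53KO TAM 1 (0.061) and Ugt3a2 without DKO TAM 2 (0.15), p53KO TAM 1 (0.1) or p53KO TAM 2 (0.068) were lost, which leaves Ugt2b1 and Ugt2b36.

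**Figure D4:**
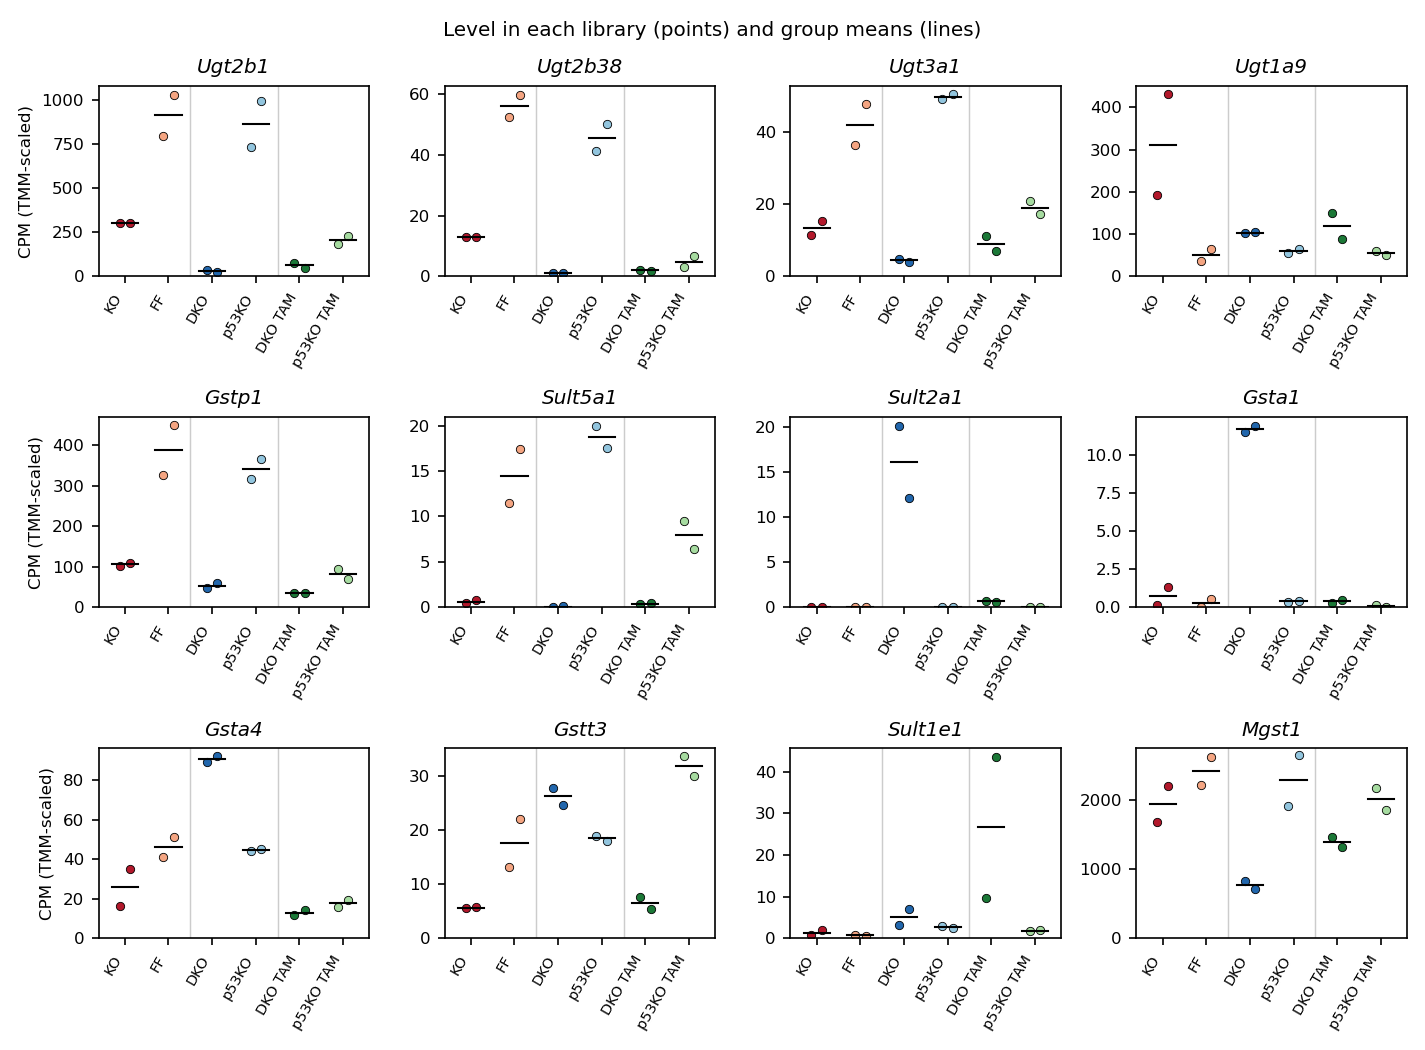
CPM of 12 members in each library (points) with group means (lines), 6 groups in each panel, each axis from 0. Ugt2b1, Ugt2b38, Ugt3a1, Gstp1 and Sult5a1 lie lower in each deleted group than in its control, while Sult2a1 and Gsta1 are near 0 in every group but DKO.

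Among the sulfotransferases, Sult5a1 fell to near 0 in the deleted livers and genes of the SULT2 family rose in DKO livers. The substrates of Sult5a1 are not well defined. Sult5a1 had 0.508 and 0.768 CPM in KO livers against 11.5 and 17.4 CPM in FF livers. DKO livers held 0 and 0.171 CPM against 19.9 and 17.6 CPM in p53KO livers. After tamoxifen, 0.312 and 0.5 CPM in DKO TAM livers stood against 9.46 and 6.47 CPM in p53KO TAM livers. The deleted livers held almost none while each control library was far above, at log2 fold changes of -4.50 ± 0.44, adjusted p = 4.2e-06 in KO livers and -4.29 ± 0.46, adjusted p = 8.5e-06 in DKO TAM livers. In DKO livers there were 2 counts against 199 in p53KO livers, a level 222-fold lower (95% counting interval 60.7 to 1850, adjusted p = 5.2e-09). Counting intervals and limits set by 0 counts cover counting error only, since reads without molecular tags need not be separate molecules.

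The SULT1 enzymes sulfate phenols, thyroid hormone, catecholamines and estrogens. Sult1a1, the main phenol sulfotransferase, had 77 and 72.02 CPM in KO livers against 194 and 203 CPM in FF livers. DKO livers held 117 and 134 CPM against 264 and 226 CPM in p53KO livers. After tamoxifen, 159 and 171 CPM in DKO TAM livers stood against 363 and 394 CPM in p53KO TAM livers. It fell in all 3 without overlap (-1.41 ± 0.13, adjusted p = 3e-06, -0.96 ± 0.13, adjusted p = 1.1e-05, and -1.20 ± 0.13, adjusted p = 8.4e-06), but under library totals alone the DKO call was lost (-0.20, adjusted p = 0.17). Sult1b1, which sulfates thyroid hormone, had 30.3 and 33.2 CPM in KO livers against 39.95 and 40.6 CPM in FF livers. DKO livers held 11.5 and 12.2 CPM against 52.2 and 49.1 CPM in p53KO livers. After tamoxifen, 24.8 and 24.9 CPM in DKO TAM livers stood against 26.2 and 28.4 CPM in p53KO TAM livers. Every deleted library lay below its controls, and the fall passed in DKO livers (-2.09 ± 0.14, adjusted p = 6.2e-09) and not in the others (-0.34 ± 0.14, adjusted p = 0.1, and -0.13 ± 0.14, adjusted p = 0.55). Sult1d1, a catecholamine sulfotransferase in mice, had 62.5 and 179 CPM in KO livers against 201 and 269 CPM in FF livers. DKO livers held 155 and 158 CPM against 305 and 376 CPM in p53KO livers. After tamoxifen, 184 and 226 CPM in DKO TAM livers stood against 208 and 190.2 CPM in p53KO TAM livers. KO 1 stood well below KO 2, the tamoxifen groups overlapped, and none of the differences passed (-0.97 ± 0.43, adjusted p = 0.2, -1.12 ± 0.42, adjusted p = 0.062, and 0.04 ± 0.42, adjusted p = 0.96), though limma-voom and the replicate block called Sult1d1 lower in KO and DKO livers, and DESeq2 and the fit of the compared libraries in DKO livers.

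Sult1c2, another SULT1 enzyme, had 2.88 and 2.11 CPM in KO livers against 4.29 and 7.59 CPM in FF livers. DKO livers held 2.37 and 1.79 CPM against 4.43 and 5.57 CPM in p53KO livers. After tamoxifen, 1.25 and 1.63 CPM in DKO TAM livers stood against 3.49 and 5.84 CPM in p53KO TAM livers. These are low levels, lower in the deleted libraries of each pair without overlap, and called in all 3 (-1.26 ± 0.39, adjusted p = 0.039, -1.25 ± 0.37, adjusted p = 0.0096, and -1.66 ± 0.41, adjusted p = 0.0095). Sult1e1, the estrogen sulfotransferase, had 0.846 and 1.92 CPM in KO livers against 0.903 and 0.518 CPM in FF livers. DKO livers held 3.22 and 7.01 CPM against 2.9 and 2.57 CPM in p53KO livers. After tamoxifen, 9.68 and 43.5 CPM in DKO TAM livers stood against 1.75 and 1.88 CPM in p53KO TAM livers. It rose in DKO TAM livers (3.85 ± 0.89, adjusted p = 0.025), where DKO TAM 2 held most of it, and was not called in KO livers (0.96 ± 1.79, adjusted p = 0.78) or DKO livers (0.89 ± 0.95, adjusted p = 0.47). Single libraries mattered for the thinner of these: the calls of Sult1c2 without KO 1 (0.083), KO 2 (0.19) or FF 2 (0.39) in KO livers, Sult1c2 without DKO 3 (0.073) or p53KO 2 (0.065) in DKO livers, and Sult1c2 without DKO TAM 1 (0.066) or p53KO TAM 2 (0.1) and Sult1e1 without p53KO TAM 1 (0.16) or p53KO TAM 2 (0.12) in DKO TAM livers were lost. The KO call of Sult1c2 was lost as well under library totals alone (adjusted p = 0.072), with the replicate block (0.056), by limma-voom (0.068) and by DESeq2 (0.1), and its DKO call under library totals alone (0.24). The Sult1e1 call in DKO TAM livers was lost in the fit of the compared libraries (0.22).

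The SULT2 enzymes sulfate hydroxysteroids and bile acids, and in mouse liver Sult2a genes are higher in females. Summed over the 8 genes, SULT2 transcripts came to 39.98 and 26.9 CPM in DKO livers against 0.341 and 0.643 CPM in p53KO livers. Sult2a1 had 20.1 and 12.1 CPM in DKO livers against 0 and 0 CPM in p53KO livers, from 378 counts against 0, so it was at least 56.5-fold higher in DKO livers when 3 counts are set as the limit over the p53KO group (adjusted p = 8.6e-07). Sult2a2 had 11.6 and 11.6 CPM in DKO livers against 0 and 0 CPM in p53KO livers, from 273 counts against 0, at least 40.8-fold higher (adjusted p = 2.4e-06). Both DKO livers held these transcripts and no FF, p53KO or p53KO TAM library did. Sult2a5 had 3.81 and 2.39 CPM in DKO livers against 0 and 0.214 CPM in p53KO livers, from 73 counts against 1, a ratio of 32.7 (95% counting interval 5.69 to 1310, adjusted p = 0.00088). The 3 genes are neighbours on chromosome 7 and share 33.2% (Sult2a1), 62.1% (Sult2a2) and 34.5% (Sult2a5) of their 50-base words with other genes, so reads may be split between them.

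After tamoxifen Sult2a1 had 12 counts in DKO TAM livers against 0 in p53KO TAM livers, at least 2.65-fold higher (adjusted p = 0.038), a call lost without any 1 of the 4 libraries (0.12 without DKO TAM 1, 0.11 without DKO TAM 2, 0.19 without p53KO TAM 1 and 0.12 without p53KO TAM 2). Sult2a7 went the other way, with 3 counts in DKO TAM livers against 24 in p53KO TAM livers, a level 12.1-fold lower (95% counting interval 3.67 to 62.6, adjusted p = 0.006), and with 0 counts in DKO livers against 4 in p53KO livers. The Sult2a7 calls were lost as follows: in DKO TAM livers Sult2a7 without DKO TAM 1 (0.06) or p53KO TAM 1 (0.062), and in DKO livers Sult2a7 without DKO 2 (0.084), DKO 3 (0.086), p53KO 1 (0.069) or p53KO 2 (0.078). Sult6b1 had 27 counts in DKO livers against 2 in p53KO livers, a ratio of 6.05 (1.52 to 52.5, adjusted p = 0.018), and lost its call without DKO 3 (0.06) or p53KO 2 (0.13).

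In the alpha class of glutathione S-transferases 1 gene fell throughout and others rose in DKO livers. Gsta3, the constitutive alpha enzyme of mouse liver that detoxifies aflatoxin epoxide, had 877 and 787 CPM in KO livers against 1334 and 1450 CPM in FF livers. DKO livers held 376 and 312 CPM against 1425 and 1299 CPM in p53KO livers. After tamoxifen, 419.5 and 296 CPM in DKO TAM livers stood against 900.4 and 929.8 CPM in p53KO TAM livers. It fell in each without overlap (-0.74 ± 0.17, adjusted p = 0.0058, -1.98 ± 0.17, adjusted p = 9e-08, and -1.35 ± 0.17, adjusted p = 3.8e-05). The inducible alpha enzyme Gsta1 had 11.5 and 11.9 CPM in DKO livers against 0.341 and 0.429 CPM in p53KO livers, and rose by 4.88 ± 0.56, adjusted p = 2.4e-06 on the log2 scale. Both DKO livers stood far above the p53KO livers, and in the other 8 libraries Gsta1 was at most 1.34 CPM. Gsta2, likewise inducible, had 15.8 and 7.61 CPM in DKO livers against 2.9 and 3.64 CPM in p53KO livers, and rose (1.85 ± 0.51, adjusted p = 0.0099) with no overlap. Gsta4, which clears the lipid peroxidation product 4-hydroxynonenal, had 16.6 and 35.1 CPM in KO livers against 41.1 and 51.4 CPM in FF livers. DKO livers held 89.4 and 92.3 CPM against 44 and 45.2 CPM in p53KO livers. After tamoxifen, 11.7 and 14.3 CPM in DKO TAM livers stood against 15.9 and 19.4 CPM in p53KO TAM livers. It fell in KO livers (-0.86 ± 0.26, adjusted p = 0.049), rose in DKO livers (1.03 ± 0.24, adjusted p = 0.0037), and did not pass in DKO TAM livers (-0.44 ± 0.29, adjusted p = 0.33). Of these alpha class calls, those of Gsta3 without KO 2 (0.054) or FF 2 (0.05) and Gsta4 without KO 1 (0.23), FF 1 (0.068) or FF 2 (0.25) in KO livers and of Gsta2 without DKO 2 (0.085) or p53KO 1 (0.096) in DKO livers were lost. The KO call of Gsta4 was also lost under RLE scaling (adjusted p = 0.053), upper quartile scaling (0.055), library totals alone (0.077), without the filter on low counts (0.075) and in the fit of the KO and FF libraries (0.27), while its DKO call was kept under every alternative.

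Of Gsta1's 50-base words 90.5% occur in other genes, 75.7% in the neighbouring gene model Gm3776. Gm3776, which is no member, had 96 counts in DKO livers against 0 in p53KO livers, at least 14.3-fold higher. Reads that fit Gsta1 and Gm3776 equally were not counted under the settings taken for all libraries. The level of Gsta1 is thus uncertain and may be split. Gsta1 and Gsta2 rose together, and their promoters are shown for that reason, from RefSeq on GRCm38.p6 at chr9:78230419-78230678 (+) and chr9:78347136-78347395 (-), 250 bases before to 10 after the start. Capitals mark matches on either strand to GCGTG, the core bound by the AHR and ARNT factors (in 32.4% of all windows and 12 of 65 member windows, 18.5%), and to TTCNNNGAA, the STAT site (8.3% of all windows and 6 of 65, 9.23%).
Gsta1: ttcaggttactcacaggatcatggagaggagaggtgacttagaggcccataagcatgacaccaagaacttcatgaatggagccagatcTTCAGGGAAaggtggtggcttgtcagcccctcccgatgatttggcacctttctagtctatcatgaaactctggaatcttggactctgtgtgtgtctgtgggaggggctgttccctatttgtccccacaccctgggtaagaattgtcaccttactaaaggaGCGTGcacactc
Gsta2: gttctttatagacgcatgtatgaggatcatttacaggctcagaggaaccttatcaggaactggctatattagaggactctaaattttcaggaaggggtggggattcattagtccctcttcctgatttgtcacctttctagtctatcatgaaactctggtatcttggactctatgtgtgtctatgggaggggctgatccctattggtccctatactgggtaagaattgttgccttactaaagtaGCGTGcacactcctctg
The Gsta1 and Gsta2 windows share 75.3% of aligned columns (238 of 316) over 300 bases. Each holds 1 GCGTG near the start, and Gsta1 holds 1 STAT match 162 bases before it. No window of either gene holds TGACNNNGC, the core of the antioxidant response element, which is in 12.4% of all windows and 4 of 65 member windows (6.15%); that says only that these letters are not in this stretch.

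The mu class, which conjugates epoxides and quinones, held the most genes. Gstm1, its most abundant enzyme, had 566 and 497 CPM in KO livers against 782 and 589 CPM in FF livers. DKO livers held 461 and 487 CPM against 865 and 682 CPM in p53KO livers. After tamoxifen, 285 and 201 CPM in DKO TAM livers stood against 551 and 436 CPM in p53KO TAM livers. It fell in DKO and DKO TAM livers (-0.71 ± 0.19, adjusted p = 0.0054, and -1.02 ± 0.19, adjusted p = 0.0017) and both KO livers lay below both FF livers without a call (-0.37 ± 0.19, adjusted p = 0.22); under library totals alone its DKO value was 0.06. Gstm6 had 16.9 and 14.5 CPM in DKO TAM livers against 41.5 and 33.8 CPM in p53KO TAM livers, and Gstm2 had 17.6 and 14.9 CPM in DKO TAM livers against 43.5 and 31.3 CPM in p53KO TAM livers. Both fell in all 3 comparisons without overlap, Gstm6 by 0.85, 1.59 and 1.26 and Gstm2 by 1.18, 0.75 and 1.21 on the log2 scale, though the DKO value of Gstm2 was 0.02 under library totals alone. Gstm4 and Gstm7 fell in DKO livers and did not pass elsewhere (-1.002 and -0.91). The DKO call of Gstm1 without p53KO 1 (0.067) was lost.

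Gstm3 and Gstm5 rose in DKO livers. Gstm3 had 26.4 and 72.4 CPM in KO livers against 33.2 and 34.4 CPM in FF livers. DKO livers held 163 and 188 CPM against 61.4 and 57 CPM in p53KO livers. After tamoxifen, 24.8 and 18.6 CPM in DKO TAM livers stood against 54.4 and 36.3 CPM in p53KO TAM livers. The DKO livers lay far above the p53KO livers (1.56 ± 0.41, adjusted p = 0.015), the KO livers differed from each other and overlapped FF livers, and DKO TAM livers lay below their controls without a call (-1.07 ± 0.44, adjusted p = 0.14). Gstm5, whose exons overlap the gene 4933431E20Rik, had 9.14 and 7.3 CPM in KO livers against 3.16 and 3.11 CPM in FF livers, and 5.51 and 5.9 CPM in DKO livers against 2.56 and 3.43 CPM in p53KO livers. It rose in both without overlap (1.39 ± 0.29, adjusted p = 0.0037, and 0.94 ± 0.28, adjusted p = 0.011). The DKO calls of Gstm3 without DKO 3 (0.068), p53KO 1 (0.079) or p53KO 2 (0.086) and Gstm5 without DKO 3 (0.057) or p53KO 1 (0.13) were lost.

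Gstp1, the pi class enzyme and a male-biased one in mouse liver, had 102 and 109.5 CPM in KO livers against 327 and 448 CPM in FF livers. DKO livers held 47.9 and 59.2 CPM against 317 and 365 CPM in p53KO livers. After tamoxifen, 36.3 and 35.8 CPM in DKO TAM livers stood against 95.6 and 70.1 CPM in p53KO TAM livers. Every deleted library lay below both of its controls (-1.87 ± 0.17, adjusted p = 3.3e-06, -2.67 ± 0.18, adjusted p = 8.9e-09, and -1.21 ± 0.18, adjusted p = 0.00024). Its neighbour Gstp2, with at most 8 counts a library, was not tested, and 33.7% of the 50-base words of Gstp1 occur in it. Gstt3, a theta class enzyme, a class that acts on small halogenated molecules, had 5.58 and 5.76 CPM in KO livers against 13.1 and 22.1 CPM in FF livers. DKO livers held 27.9 and 24.7 CPM against 18.9 and 18 CPM in p53KO livers. After tamoxifen, 7.7 and 5.38 CPM in DKO TAM livers stood against 33.8 and 30.03 CPM in p53KO TAM livers. It fell in KO and DKO TAM livers (-1.65 ± 0.26, adjusted p = 0.00046, and -2.27 ± 0.23, adjusted p = 4.1e-06) and rose in DKO livers (0.51 ± 0.21, adjusted p = 0.049), in each without overlap. Gstt2 fell in DKO livers and did not pass elsewhere (-0.77), and Gstt1 was called in none. The DKO calls of Gstt2 without DKO 2 (0.15) or p53KO 1 (0.15) and Gstt3 without DKO 2 (0.21), DKO 3 (0.077), p53KO 1 (0.13) or p53KO 2 (0.16) were lost.

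Gstz1, the maleylacetoacetate isomerase of tyrosine breakdown, had 512 and 584 CPM in KO livers against 802 and 904 CPM in FF livers. DKO livers held 238 and 226 CPM against 862 and 876 CPM in p53KO livers. After tamoxifen, 503 and 435 CPM in DKO TAM livers stood against 692 and 778 CPM in p53KO TAM livers. It fell in each without overlap (-0.64 ± 0.14, adjusted p = 0.005, -1.91 ± 0.14, adjusted p = 2.1e-08, and -0.65 ± 0.14, adjusted p = 0.0039), and 1632 of its 2108 exon bases are not shared with the overlapping gene Pomt2. Gsto1, an omega class thioltransferase, had 102 and 129 CPM in KO livers against 54.6 and 77.5 CPM in FF livers. DKO livers held 75.4 and 72.4 CPM against 67.5 and 78.4 CPM in p53KO livers. After tamoxifen, 122 and 95.8 CPM in DKO TAM livers stood against 63.6 and 78.6 CPM in p53KO TAM livers. It rose in KO and DKO TAM livers (0.80 ± 0.18, adjusted p = 0.0073, and 0.62 ± 0.18, adjusted p = 0.024), while DKO and p53KO livers overlapped. Gstk1, the kappa enzyme of mitochondria and peroxisomes, had 40.2 and 37.02 CPM in DKO livers against 66.3 and 54.9 CPM in p53KO livers and 74.9 and 78.03 CPM in DKO TAM livers against 62.7 and 50.9 CPM in p53KO TAM livers. It fell in DKO livers (-0.65 ± 0.14, adjusted p = 0.001; 0.11 under library totals alone) and rose in DKO TAM livers (0.42 ± 0.14, adjusted p = 0.043). Without a single library, the calls of Gstz1 without KO 1 (0.061) or FF 2 (0.059) and Gsto1 without KO 2 (0.088) or FF 1 (0.087) in KO livers and of Gstz1 without p53KO TAM 2 (0.051), Gsto1 without DKO TAM 1 (0.17) or p53KO TAM 1 (0.21) and Gstk1 without DKO TAM 1 (0.092), DKO TAM 2 (0.16) or p53KO TAM 2 (0.3) in DKO TAM livers were lost. The DKO TAM call of Gstk1 was also lost by DESeq2 (0.1) and in the fit of the compared libraries (0.056).

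Microsomal GSTs are a separate family of membrane proteins. Mgst1, which protects the endoplasmic reticulum and outer mitochondrial membrane from peroxides, had 1675 and 2194 CPM in KO livers against 2216 and 2615 CPM in FF livers. DKO livers held 831 and 706 CPM against 1916 and 2653 CPM in p53KO livers. After tamoxifen, 1465 and 1320 CPM in DKO TAM livers stood against 2174 and 1854 CPM in p53KO TAM livers. It fell in DKO livers (-1.57 ± 0.19, adjusted p = 3.6e-06), and the deleted libraries lay below their controls without a call in KO livers (-0.32 ± 0.18, adjusted p = 0.27) and DKO TAM livers (-0.53 ± 0.18, adjusted p = 0.054). Mgst3, which can make leukotriene C4, had 3.22 and 4.61 CPM in KO livers against 2.48 and 2.07 CPM in FF livers. DKO livers held 7.12 and 5.64 CPM against 3.07 and 4.93 CPM in p53KO livers. After tamoxifen, 2.81 and 3.25 CPM in DKO TAM livers stood against 4.66 and 3.75 CPM in p53KO TAM livers. DKO livers lay above p53KO livers without a call (0.70 ± 0.30, adjusted p = 0.064), as did KO above FF livers (0.78 ± 0.38, adjusted p = 0.2).

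Of the 13 members with too few counts to test, Sult1c1 had no counts, which allows up to 0.342 to 0.607 CPM of the plain totals per library. Ugt2a1, Ugt2a2, Sult2a3, Sult3a1, Sult4a1, Gstt4 and Gsto2 had 2 to 23 counts over all 12 libraries, and Gstp2 had 54. The other 4 had most of their counts in DKO livers. Sult2a4 had 36 counts in DKO livers against 0 in p53KO livers, at least 5.38-fold higher, but 35 of the 36 were in DKO 2. Mgst2, a leukotriene C4 synthase, had 18 against 0 (at least 2.69-fold), and Sult2a6 and the cholesterol sulfotransferase Sult2b1 had 12 against 0 each (at least 1.79-fold). For Sult2a6, 11 of the 12 were in DKO 2, while Sult2b1 had 6 in each DKO library.

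Whether members responded differently without p53 was tested as the DKO effect minus the KO effect. Of 49 members 28 differed, 26 of them with the lower effect in the DKO comparison and 2, Gsta4 and Gstt3, with the higher one (57.1%, where 22.7% of all tested genes differed). They include 14 of the 18 UGTs. Under library totals alone 23 differed, 16 with the lower and 7 with the higher effect in the DKO comparison. Among the members called in that test with 4 or more counts in each group the differences were largest for Ugt1a10 (-4.18 ± 0.88, adjusted p = 0.003), Ugt2b38 (-3.47 ± 0.37, adjusted p = 2e-05) and Ugt2b1 (-3.22 ± 0.33, adjusted p = 5.6e-05). The effects on Sult1a1, -0.96 in DKO and -1.41 in KO livers, were not called as different (0.45 ± 0.18, adjusted p = 0.085), but were under upper quartile scaling (0.64, adjusted p = 0.018) and library totals alone (0.96, adjusted p = 0.001). Those on Sult1c2 (0.02 ± 0.58, adjusted p = 0.99) and Gstm2 (0.43 ± 0.27, adjusted p = 0.27) did not pass, and that of Gstm2 did under library totals alone (0.021). Age and experiment go with the p53 genotype here, so that p53, 7 against 8 weeks and the experiment cannot be told apart.

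**Figure D5:**
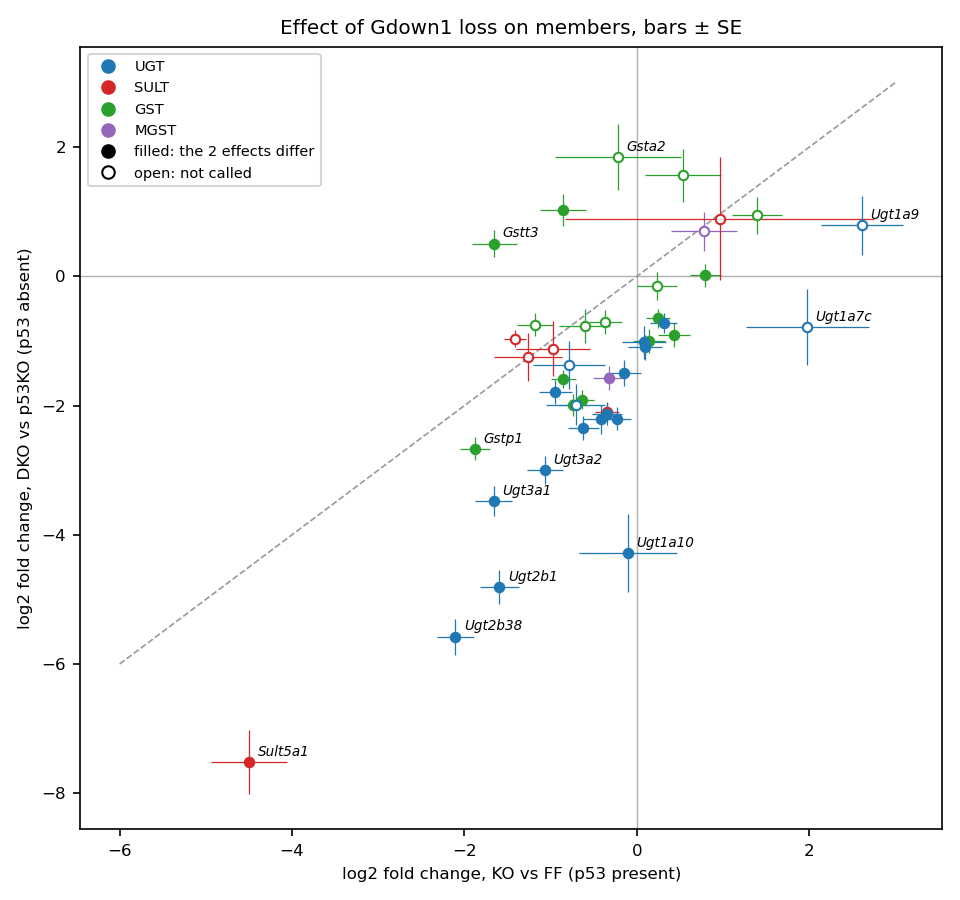
Log2 fold change with SE bars of 43 members in DKO against p53KO livers (vertical) and in KO against FF livers (horizontal), coloured by family, with the dashed line at equal effects. Filled points passed the test of the difference. The 6 tested members with the fewest control counts (Sult2a1, Sult2a2, Sult2a5, Sult2a7, Sult6b1 and Gsta1) are left out, and most UGTs lie under the line.

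Against the tamoxifen comparison, the DKO effect differed in 21 of 49 members, 18 with the lower and 3 (Gsta4, Gstm3 and Gstt3) with the higher effect in DKO livers (42.9%, where 27.6% of all tested genes differed). Under library totals alone 21 differed, 14 with the lower and 7 with the higher effect in DKO livers. The form of Cre, tamoxifen and the time since deletion go together in it and cannot be told apart. Ugt2b38 (-4.40 ± 0.48, adjusted p = 1.2e-05), Ugt2b1 (-3.09 ± 0.33, adjusted p = 4.3e-05) and Gstt3 (2.78 ± 0.31, adjusted p = 1.3e-05) differed most among the members called in that test with 4 or more counts in each group. The differences of Gsta4 without p53KO 1 (0.058), DKO TAM 1 (0.061) or p53KO TAM 2 (0.056) and Gstm3 without DKO 3 (0.056), p53KO 1 (0.06), p53KO 2 (0.06), DKO TAM 2 (0.06) or p53KO TAM 1 (0.061) lost their call. The differences for Gstm1 (0.32 ± 0.27, adjusted p = 0.41), Gsta3 (-0.63 ± 0.23, adjusted p = 0.053) and Sult1a1 (0.23 ± 0.18, adjusted p = 0.35) did not pass, though Sult1a1 did under library totals alone (0.011) and Gsta3 without the filter on low counts (0.03).

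The control groups were compared too. FF and p53KO livers, which are controls above, stand in these tests as well, so no overlap between comparisons is given. Against FF livers, no member was called in p53KO livers by edgeR (0.862% of all tested genes were), 6 had an unadjusted p under 0.05, and DESeq2 and limma-voom also called 0. The p53KO TAM livers, in contrast, differed from p53KO livers in 21 of 49 members, 3 higher and 18 lower (42.9%, where 15.8% of all tested genes were called). Ugt2b38 had 3.06 and 6.67 CPM in p53KO TAM livers against 41.1 and 50.1 CPM in p53KO livers (-3.29 ± 0.25, adjusted p = 2.7e-07). Ugt2b1 had 186 and 232 CPM in p53KO TAM livers against 732 and 996 CPM in p53KO livers (-2.05 ± 0.23, adjusted p = 9.3e-05), and Gstp1 95.6 and 70.1 CPM in p53KO TAM livers against 317 and 365 CPM in p53KO livers (-2.04 ± 0.18, adjusted p = 1.5e-06). The groups overlapped for none of the 3. Sult1a1 rose, with 363 and 394 CPM in p53KO TAM livers against 264 and 226 CPM in p53KO livers (0.63 ± 0.13, adjusted p = 0.003), as did Gstt3 (0.79 ± 0.21, adjusted p = 0.018) and Sult2a7 (2.38 ± 0.76, adjusted p = 0.045). Tamoxifen and experiment differ together between these controls and cannot be told apart, and DKO TAM livers are set against controls in which these members already stood at other levels. Without p53KO 1 or p53KO TAM 2, 13 calls were left, and the calls of Gstt3 (p53KO 1 (0.081), p53KO 2 (0.078), p53KO TAM 1 (0.14)) and Sult2a7 (p53KO 1 (0.23), p53KO 2 (0.13), p53KO TAM 1 (0.21), p53KO TAM 2 (0.1)) were lost without the libraries named.

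Genes that supply or clear the substrates and products of these reactions were counted by list. For each list below, the share of all tested genes called was 14.8% in KO, 51.4% in DKO and 18.7% in DKO TAM livers. Of 3 genes that supply UDP-glucuronic acid, 1, 2 and 1 fell in KO, DKO and DKO TAM livers and none rose. Ugp2, which makes UDP-glucose, had 360.3 and 388 CPM in KO livers against 595 and 521 CPM in FF livers. DKO livers held 224 and 214 CPM against 446 and 571 CPM in p53KO livers. After tamoxifen, 212 and 159 CPM in DKO TAM livers stood against 273 and 262 CPM in p53KO TAM livers. It was lower in each without overlap (log2 fold change -0.58 ± 0.16, adjusted p = 0.019, -1.22 ± 0.16, adjusted p = 7.9e-06, and -0.53 ± 0.16, adjusted p = 0.027), and its calls were lost in KO livers without KO 1 (0.11), KO 2 (0.052) or FF 1 (0.14) and in DKO TAM livers without DKO TAM 2 (0.25), p53KO TAM 1 (0.14) or p53KO TAM 2 (0.092). Slc35d1, which brings UDP-glucuronic acid into the endoplasmic reticulum, fell in DKO livers (-1.12 ± 0.20, adjusted p = 0.00043), and Ugdh passed in none. Of 7 genes of PAPS supply and use, none passed in KO livers and 2 fell in each of the others. The 2 of 7 in DKO livers were a smaller share than the 51.4% of all tested genes called there. Slc26a1, a hepatocyte sulfate transporter, fell in DKO and DKO TAM livers (-1.56 ± 0.16, adjusted p = 7.5e-07, and -0.79 ± 0.16, adjusted p = 0.0024).

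Of 9 tested genes of glutathione supply and breakdown, 1 fell in KO livers, 5 fell and 1 rose in DKO livers, and 1 fell and 1 rose in DKO TAM livers. Gclm, a subunit of the first enzyme of glutathione synthesis, fell in DKO livers (-0.76 ± 0.15, adjusted p = 0.0005). Slc7a11, the cystine importer, had 4.57 and 5.73 CPM in DKO livers against 0 and 0 CPM in p53KO livers. It was seen in both DKO livers and in neither control (adjusted p = 2.1e-05). Of 7 genes that carry conjugates out of the cell, 1 rose and 2 fell in KO livers, 3 rose and 3 fell in DKO livers, and 2 rose and 2 fell in DKO TAM livers. Abcc3, which exports glucuronides to blood, had 114 and 193 CPM in KO livers against 351 and 311 CPM in FF livers. DKO livers held 107 and 135 CPM against 338 and 411 CPM in p53KO livers. After tamoxifen, 172 and 145 CPM in DKO TAM livers stood against 512 and 459.5 CPM in p53KO TAM livers. It fell in all 3 without overlap (-1.11 ± 0.21, adjusted p = 0.0035, -1.62 ± 0.21, adjusted p = 3.1e-05, and -1.61 ± 0.21, adjusted p = 0.0002). Abcc1, Abcc4 and Abcc5 rose in DKO livers (1.97, 1.61 and 1.58). Gusb, the beta-glucuronidase that splits glucuronides, had 52.1 and 58.4 CPM in KO livers against 24.1 and 30.6 CPM in FF livers. DKO livers held 45.8 and 54.1 CPM against 23.9 and 25.1 CPM in p53KO livers. After tamoxifen, 49.01 and 49.5 CPM in DKO TAM livers stood against 28.7 and 30.7 CPM in p53KO TAM livers. It rose in all 3 without overlap (1.005 ± 0.15, adjusted p = 0.00028, 1.03 ± 0.15, adjusted p = 2.4e-05, and 0.73 ± 0.15, adjusted p = 0.0023).

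Of 11 genes for other conjugations, 3 fell in KO livers, 5 fell and 1 rose in DKO livers, and 3 fell in DKO TAM livers. Baat, which joins bile acids to taurine or glycine, had 72.1 and 139.6 CPM in KO livers against 408 and 543 CPM in FF livers. DKO livers held 66.8 and 74.5 CPM against 489 and 525 CPM in p53KO livers. After tamoxifen, 184 and 221 CPM in DKO TAM livers stood against 425 and 471 CPM in p53KO TAM livers. It fell in each without overlap (-2.17 ± 0.26, adjusted p = 0.00028, -2.84 ± 0.26, adjusted p = 4.8e-06, and -1.15 ± 0.25, adjusted p = 0.009), with the DKO TAM call lost without DKO TAM 1 (0.075) or p53KO TAM 2 (0.054). Of 10 regulators, 1 rose and 2 fell in KO livers, 1 rose and 4 fell in DKO livers, and 1 rose in DKO TAM livers. The DKO calls, 6 of 11 genes for other conjugations and 5 of 10 regulators, were near the 51.4% of all tested genes called there. Nr1i3, the xenobiotic receptor CAR, fell in KO and DKO livers (-0.89 ± 0.17, adjusted p = 0.0023, and -1.77 ± 0.17, adjusted p = 3.9e-07). Nfe2l2, which encodes NRF2, rose in all 3 (1.14 ± 0.17, adjusted p = 0.00033, 0.77 ± 0.17, adjusted p = 0.0013, and 0.56 ± 0.17, adjusted p = 0.033), a call lost in DKO TAM livers without DKO TAM 1 (0.12), DKO TAM 2 (0.091), p53KO TAM 1 (0.19) or p53KO TAM 2 (0.1). Of 4 listed genes outside the members known to be induced by NRF2, 2 rose in KO livers, 3 in DKO livers and none in DKO TAM livers. That list is not complete and leaves out, among others, Slc7a11, Gclc and Gclm of the glutathione list. In DKO livers Slc7a11 rose while Gclc and Gclm lay below p53KO livers. Gclc had 206 and 158 CPM in DKO livers against 321 and 351 CPM in p53KO livers. The values of Gclm were 107.5 and 87.2 CPM in DKO livers against 149 and 181 CPM in p53KO livers. Nqo1 rose in KO and DKO livers (1.34 ± 0.29, adjusted p = 0.0052, and 1.47 ± 0.26, adjusted p = 0.00016), and so did Srxn1 (1.14 ± 0.15, adjusted p = 9.3e-05, and 1.16 ± 0.15, adjusted p = 6.9e-06).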

How the data were processed

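Whole-liver total RNA libraries (SMARTer stranded kit, per the labels' protocols) were aligned with HISAT2 to GRCm38 (mm10) and counted with featureCounts, per the submitters' processing notes; 4 of the 12 file headers name featureCounts 1.6.4. The deposited values are raw counts per gene, one file per library, made by the authors. Those 4 headers set no option for strand, overlapping genes or multiple alignments, which under that program's defaults leaves out reads on more than 1 gene or place; the other 8 files hold no such line. The counts were analysed with edgeR 4.0.16 in R 4.3.3: genes kept by filterByExpr (minimum count 10, 13693 genes holding 99.9% of counts), TMM scaling, 1 mean per group over all 12 libraries, robust quasi-likelihood F tests with 6 residual degrees of freedom (common BCV 0.124), Benjamini-Hochberg adjustment over all genes tested, and calls under 0.05. Fold changes are on the log2 scale. Their standard errors were not fitted directly but taken as the size of the log2 fold change over the square root of the F statistic.

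The members and gene lists were chosen with earlier results of these data known, so no list result is independent support. Any member may be named. Library values are given, per comparison, for called members averaging 5 CPM or more in the higher group, up to 8 in each direction by fold change, and for the 3 genes of each family with the highest level per length; a few others were added after their values were seen. Alternatives were 3 other scalings, a scaling without mitochondrial, haemoglobin and ribosomal RNA genes, 2 other filters, DESeq2 1.42.0, limma-voom (limma 3.58.1), fits of the compared libraries alone, a replicate block and leaving out each library. On simulated counts, edgeR recovered 54%, 64% and 60% of 2-fold and 90%, 97% and 89% of 4-fold changes in the KO, DKO and DKO TAM comparisons. Replicates differed by more than sampling noise in every group (chi-square per degree of freedom 6.05 to 17.0). The replicate numbers of DKO libraries are those of the sample titles, 2 and 3.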

Additional observations from a re-analysis of the deposited data

Results flagged for a closer look

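The members below changed by different amounts in 2 comparisons by a direct test of the difference (edgeR, adjusted p under 0.05), each given as a difference of log2 fold changes. For the DKO effect minus the KO effect, 28 members differed. Among UGTs they were Ugt1a10 (-4.18), Ugt2b38 (-3.47), Ugt2b1 (-3.22), Ugt2a3 (-1.97), Ugt3a2 (-1.93), Ugt3a1 (-1.81), Ugt2b5 (-1.80), Ugt2b36 (-1.78), Ugt1a6b (-1.73), Ugt1a6a (-1.34), Ugt2b35 (-1.20), Ugt2b34 (-1.11), Ugt1a1 (-1.03) and Ugt1a5 (-0.85). Among SULTs they were Sult2a7 (-6.49), Sult5a1 (-3.02) and Sult1b1 (-1.75). Among GSTs they were Gstm7 (-1.34), Gstz1 (-1.27), Gsta3 (-1.24), Gstm4 (-1.14), Gstk1 (-0.90), Gstp1 (-0.80), Gsto1 (-0.78), Gstm6 (-0.74), Gsta4 (1.88) and Gstt3 (2.16). Among MGSTs it was Mgst1 (-1.25). Single libraries decided 7 of these, with the adjusted p in parentheses: Gstm6 without FF 1 (0.055) or DKO 3 (0.059), Gsto1 without KO 2 (0.17), FF 1 (0.16), DKO 2 (0.074), DKO 3 (0.1) or p53KO 2 (0.11), Gstp1 without KO 2 (0.094), FF 1 (0.12), DKO 2 (0.1) or p53KO 2 (0.077), Sult2a7 without DKO 3 (0.051), p53KO 1 (0.053) or p53KO 2 (0.055), Sult5a1 without KO 1 (0.071), KO 2 (0.18), FF 1 (0.07), DKO 2 (0.15) or p53KO 1 (0.068), Ugt1a5 without KO 1 (0.062), KO 2 (0.077), FF 2 (0.11), DKO 3 (0.099), p53KO 1 (0.058) or p53KO 2 (0.052) and Ugt2b34 without KO 2 (0.16), FF 1 (0.14), DKO 3 (0.15), p53KO 1 (0.12) or p53KO 2 (0.12).

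For the DKO effect minus the DKO TAM effect, 21 members differed. Among UGTs they were Ugt2b38 (-4.40), Ugt2b1 (-3.09), Ugt3a1 (-2.41), Ugt3a2 (-2.23), Ugt2a3 (-1.65), Ugt1a6b (-1.62), Ugt2b5 (-1.52), Ugt1a5 (-1.49), Ugt2b36 (-1.27), Ugt1a6a (-1.06), Ugt2b35 (-1.05) and Ugt1a1 (-0.73). Among SULTs they were Sult5a1 (-3.23) and Sult1b1 (-1.96). Among GSTs they were Gstp1 (-1.46), Gstz1 (-1.26), Gstk1 (-1.08), Gsta4 (1.46), Gstm3 (2.63) and Gstt3 (2.78). Among MGSTs it was Mgst1 (-1.04). Single libraries decided 6 of these: Gsta4 without p53KO 1 (0.058), DKO TAM 1 (0.061) or p53KO TAM 2 (0.056), Gstm3 without DKO 3 (0.056), p53KO 1 (0.06), p53KO 2 (0.06), DKO TAM 2 (0.06) or p53KO TAM 1 (0.061), Sult5a1 without DKO 2 (0.11), DKO TAM 1 (0.051) or DKO TAM 2 (0.13), Ugt1a1 without DKO 3 (0.074), DKO TAM 1 (0.12), p53KO TAM 1 (0.057) or p53KO TAM 2 (0.052), Ugt1a6a without DKO 3 (0.059) or p53KO TAM 1 (0.065) and Ugt2b35 without DKO 3 (0.052). The Sult2a7 difference in the first test rests on 0 counts in DKO livers and depends on the prior count, and those of Sult5a1 in both tests rest on 2 counts there. Age and experiment go with the first difference, and tamoxifen, Cre form and experiment with the second.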

How the results depend on the processing

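Each group has 2 libraries, which limits the precision most for members with few counts. The counts of called members stayed within 1.5 times under every alternative, with these exceptions. Leaving out 1 library left 13 to 20 calls in DKO TAM against p53KO TAM livers and 13 to 15 in p53KO TAM against p53KO livers, where all libraries gave 24 and 21. In p53KO against FF livers, where edgeR called 0, 1 member was called with the replicate block (Ugt1a7c) and 1 with only the compared libraries (Gstm3). Leaving out 1 library left 15 to 17 calls in KO livers, 35 to 38 in DKO livers, and 23 to 29 and 18 to 22 in the tests of the DKO effect minus the KO and the DKO TAM effect. Of the called members, 12 of 19, 31 of 42 and 10 of 24 kept the call under every library left out, and 12, 24 and 10 under all alternatives.

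With library totals as the only scaling, the median of all genes was 0.28, 0.77 and 0.36 (log2) in the 3 comparisons and the member calls were 7 higher and 13 lower, 14 and 20, and 6 and 13. Under it 5 DKO values changed sign: Ugt1a1 to 0.05 (0.049), Gstm2 to 0.02 (0.015), Gstm1 to 0.06, Gstk1 to 0.11 (0.113) and Gstt1 to 0.62 (0.617). Upper quartile scaling moved the DKO median of all genes to 0.23. With the replicate block 20, 43 and 28 members were called in KO, DKO and DKO TAM livers and 14 in p53KO TAM against p53KO livers. In KO livers the block ended the call of Sult1c2 and added Ugt1a7c and Sult1d1. The labels do not say that a shared number marks a shared litter, batch or day, and same-numbered libraries deviated with correlations of 0.11, -0.0706 and -0.013 in the 3 experiments. The 2 tests of differences between effects gave 7 higher and 16 lower, and 7 and 14, under library totals alone, where TMM scaling gave 2 and 26, and 3 and 18. By DESeq2 the DKO calls of Gstt3, Gstm5 and Sult6b1 were lost, as were the DKO TAM calls of Ugt1a10 and Gstk1 and the KO calls of Ugt1a6b and Sult1c2. With only the compared libraries the DKO TAM calls of Ugt2b38, Sult1e1 and Gstk1 were lost and Ugt1a10 and Sult2a1 were not tested. By limma-voom the DKO TAM calls of Ugt1a10, Ugt2b38 and Sult2a1 were lost. The Sult2a7 call in DKO livers was lost with the replicate block.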
